A study of Mus musculus with 12 samples.

Results

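The genes described here encode 10 secreted proteins of the extracellular matrix or its surroundings: fibronectin (Fn1), versican (Vcan), thrombospondin (Thbs1), cartilage oligomeric matrix protein (Comp), an insulin-like growth factor binding protein (Igfbp5), apolipoprotein D (Apod), decorin (Dcn), osteonectin (Sparc), periostin (Postn) and tenascin (Tnc). They were taken by symbol from the deposited tables, which list 21753 genes between them. The ribose table listed 10 of the 10, and the AAV table listed 8, without Vcan and Tnc. The genes were selected on their FPKM differences in both experiments, which were already known, so every difference between groups below is a description and supports nothing beyond itself.

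RNA came from sensory neurons of the L4-6 dorsal root ganglia, the clusters of sensory cell bodies beside the spinal cord, of 8-week C57BL/6J mice. Every group, the controls included, had a spinal cord injury 72 h before collection. AAV-TKT mice had received an adeno-associated virus carrying transketolase, an enzyme of the pentose phosphate pathway, through the sciatic nerve for 4 weeks, and AAV-GFP mice a virus carrying green fluorescent protein in its place. Ribose mice were treated with 10% ribose, a pentose sugar, and Vehicle mice with its vehicle. Each of these 4 groups held 3 libraries. The labels name neither the promoter and serotype of the virus nor the route and length of the ribose treatment. Nothing in them says that the libraries of a group came from separate animals, so any p-value measures only the spread between these samples, which may be technical.

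The extracellular matrix is the protein and sugar mesh around cells. Collagens and laminins form its scaffold, and the glycoproteins and proteoglycans described here bind that scaffold, growth factors and cell-surface receptors such as the integrins. In a ganglion and nerve, fibroblasts, perineurial cells, Schwann cells and satellite glia are known sources of matrix, and blood cells and platelets also carry fibronectin and thrombospondin. After injury, thrombospondins and tenascins, which signal to cells more than they bear load, are known to be made anew in many tissues. Chondroitin sulfate proteoglycans such as versican are known to impede the growth of axons in the injured central nervous system.

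Promoter windows of a pair of genes are printed because these had the highest and the lowest difference between Ribose and Vehicle among the 10. The RefSeq table held windows, from 250 bases before to 50 bases after the start of a gene, for Vcan, Postn, Tnc, Sparc, Igfbp5 and Apod. The windows below are in GRCm38.p6 and run 5′ to 3′ along the transcribed strand. The Vcan window is chr13:89742463-89742762 on the minus strand, and the Postn window printed is chr3:54360857-54361156 on the plus strand. Postn had a further window, chr3:54359017-54359316, which is not printed.
Vcan promoter: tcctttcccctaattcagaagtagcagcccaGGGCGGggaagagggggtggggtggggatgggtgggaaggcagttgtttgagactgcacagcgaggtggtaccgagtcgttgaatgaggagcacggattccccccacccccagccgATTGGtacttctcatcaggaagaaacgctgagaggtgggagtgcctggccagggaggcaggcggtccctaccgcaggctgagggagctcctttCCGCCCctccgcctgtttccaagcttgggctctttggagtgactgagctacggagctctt
Postn promoter: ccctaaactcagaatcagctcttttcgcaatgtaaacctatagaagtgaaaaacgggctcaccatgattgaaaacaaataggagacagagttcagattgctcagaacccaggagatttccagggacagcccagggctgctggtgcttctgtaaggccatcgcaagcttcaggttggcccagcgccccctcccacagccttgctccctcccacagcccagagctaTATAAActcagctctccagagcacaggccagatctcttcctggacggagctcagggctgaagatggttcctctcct
Capitals mark matches on either strand to any of 6 motifs that were searched: TATAAA (the TATA box), CCAAT (the CCAAT box), GGGCGG (the GC box), TGANTCA (the AP-1 site), CATTCC (the TEAD site) and CTTTGA (the TCF/LEF core). The marked matches do not overlap. In the Vcan window GGGCGG was found at position -219 from the start site, its reverse complement at -10, and the reverse complement of CCAAT at -103. The printed Postn window held TATAAA at -26. The further Postn window held no TATAAA, and its only match was the reverse complement of CCAAT at 25. Of 32851 windows of this length, 35.7% hold GGGCGG, 37.4% CCAAT and 13.6% TATAAA, so each of these motifs is common. The GC content was 61.0% for Vcan and 53.0% for the printed Postn window, against a median of 52.7% over all windows. It was 40.0% for the further Postn window. These matches describe letters and show no binding.

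The libraries carried markers of neurons together with those of other cells. Tkt, the gene carried by the virus, had 223, 259 and 262 FPKM in AAV-TKT, against 106, 101.7 and 98.1 FPKM in AAV-GFP. All 12 sensory neuron markers were listed, with summed levels of 8378 to 9319 FPKM in AAV-TKT, 7055 to 7957 FPKM in AAV-GFP, 7333 to 7889 FPKM in Ribose and 7411 to 8637 FPKM in Vehicle. FPKM counts fragments per kilobase of a gene's transcript and is scaled by the authors to the size of the library. The Schwann cell markers summed to 880 to 901 FPKM in AAV-TKT and 927 to 931 FPKM in AAV-GFP, and to 781 to 934 FPKM in Ribose and 911 to 1151 FPKM in Vehicle. Read counts were not part of the tables. The steps of the lowest values in the ribose table gave relative depths of 0.736 to 0.890 for Ribose and 0.987 to 1.31 for Vehicle libraries, so the Ribose values rest on fewer reads. In such bulk RNA, fewer cells of a type and less RNA per cell cannot be told apart.

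Levels of the 10 genes spanned a wide range. Per length of transcript, Sparc was the most abundant in all 4 groups, at 67.0 ± 21.1 FPKM in AAV-TKT, 78.2 ± 7.91 FPKM in AAV-GFP, 64.7 ± 37.3 FPKM in Ribose and 97.4 ± 40.0 FPKM in Vehicle (SD, n = 3 each). Apod and Dcn came next in every group, and their ranges overlapped in AAV-GFP and Ribose. Thbs1 and Fn1 were lowest in AAV-TKT and AAV-GFP, where their ranges overlapped. In Ribose every neighbour in the order of levels overlapped the next. In Vehicle the lowest were Thbs1, Vcan and then Tnc, and Vcan and Tnc did not overlap.

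In AAV-TKT ganglia, Thbs1, Fn1 and Igfbp5 lay below every AAV-GFP library and Comp lay above, while Apod, Dcn, Sparc and Postn overlapped between the groups. Log2 differences were -1.05 for Thbs1, -0.79 for Fn1, -0.44 for Igfbp5 and 0.52 for Comp. None of the 8 listed genes passed the test over all genes (limma with Benjamini-Hochberg adjustment, threshold 0.05, lowest adjusted p = 0.324), and 4 of 8 had an unadjusted p under 0.05. Over all 13178 genes tested, 0.0152% passed, 0.00759% in the higher and 0.00759% in the lower direction, and 10.6% had an unadjusted p under 0.05. Groups did not overlap for 3 of 8 genes in the lower direction, beside 7.2% of all genes, and for 1 of 8 in the higher direction, beside 11.3%, together 4 of 8 beside 18.5%. Thbs1 and Fn1 averaged 0.785 and 0.945 FPKM in AAV-TKT, against 2.80 and 2.42 FPKM in AAV-GFP. They met the minimum mean of 1 FPKM only through AAV-GFP, so their lower direction is tied to that minimum. The median log2 difference was -0.35 over the 8 genes and 0.014 over all genes. A log2 difference here is that of log2(FPKM + 1), which understates the change of genes with low values.

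**Figure D1:**
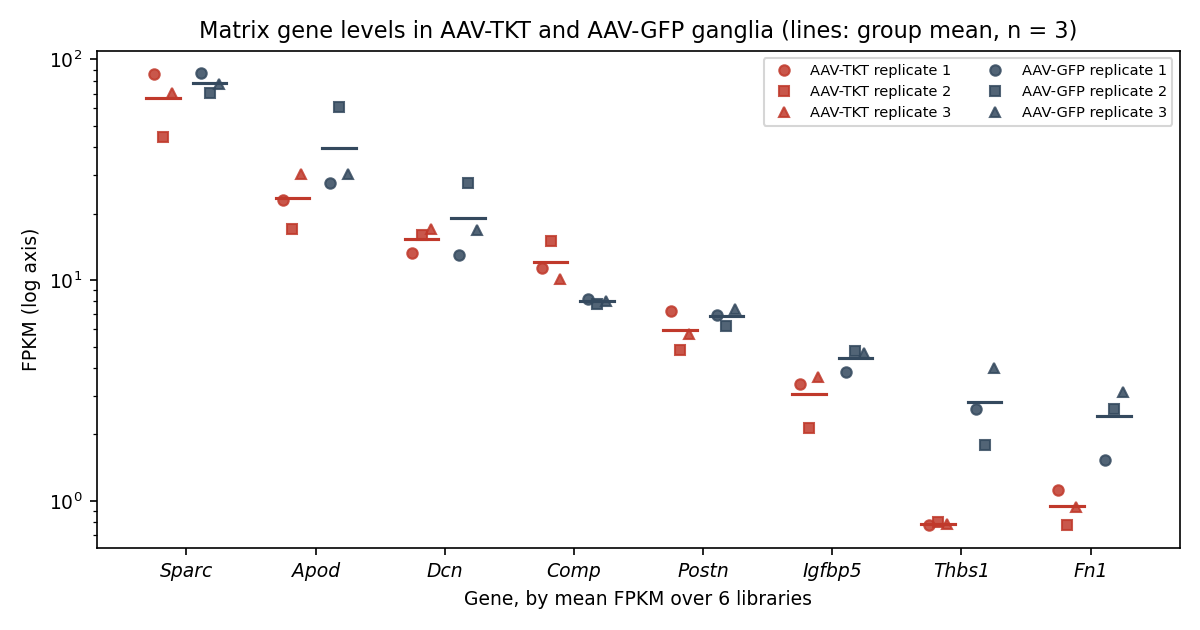
FPKM of the 8 listed genes on a log axis in the 3 AAV-TKT (left, red) and 3 AAV-GFP (right, dark) libraries, 1 point per library with its replicate given by the marker shape and a line at each group mean. Thbs1, Fn1 and Igfbp5 are lower and Comp is higher in every AAV-TKT library, and the other 4 genes overlap.

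Thbs1 encodes a large trimeric glycoprotein that binds the receptors CD36 and CD47 and can activate latent TGF-beta. It had 0.775, 0.799 and 0.782 FPKM in AAV-TKT replicates 1, 2 and 3, against 2.59, 1.79 and 4.01 FPKM in AAV-GFP replicates 1, 2 and 3. The AAV-TKT libraries sat within 1.03-fold of each other, while those of AAV-GFP ranged over 2.23-fold, and the groups did not overlap. The AAV-TKT mean was 0.281 times the AAV-GFP mean, and the log2 difference was -1.05 (SE 0.21). In GRCm38 the Thbs1 gene is on chromosome 2 (start 118111876, end 118127133, plus strand), with 1 protein-coding transcript in GENCODE M21. The non-coding gene Gm29233 overlaps it on the opposite strand. It is not in the AAV table, so its part in the Thbs1 value was not tested.

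Fn1, fibronectin, links collagen and cell-surface integrins and is carried in plasma as well as laid down in matrix. Its values were 1.11, 0.781 and 0.941 FPKM in AAV-TKT, against 1.53, 2.61 and 3.12 FPKM in AAV-GFP. The highest AAV-TKT library lay under the lowest AAV-GFP library, AAV-GFP replicate 1. The log2 difference was -0.79 (SE 0.20). Fn1 is on chromosome 1 (start 71585520, end 71653200, minus strand), and the antisense gene Apol7d, not listed in either table, overlaps it.

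Comp, cartilage oligomeric matrix protein, is a thrombospondin family member best known from cartilage and tendon. It was the listed gene with a difference in the other direction, at 11.3, 15.01 and 10.1 FPKM in AAV-TKT against 8.23, 7.81 and 8.02 FPKM in AAV-GFP. The AAV-GFP libraries sat within 1.05-fold of each other. AAV-TKT replicate 2 was the highest of the 6 libraries. The log2 difference was 0.52 (SE 0.13), and without that library it was 0.37. No annotated gene overlaps Comp, on chromosome 8 (start 70373558, end 70382066, plus strand).

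Igfbp5 binds insulin-like growth factors and matrix. It had 3.39, 2.14 and 3.65 FPKM in AAV-TKT, against 3.85, 4.78 and 4.69 FPKM in AAV-GFP. The gap between the groups was narrow, and AAV-TKT replicate 2 was the lowest library. The log2 difference was -0.44 (SE 0.17), and -0.26 without that library. With quantile normalization the Igfbp5 groups overlapped.

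The remaining listed genes overlapped between AAV-TKT and AAV-GFP. Apod, a lipocalin that carries small lipids, had 23.0, 17.1 and 30.4 FPKM in AAV-TKT, against 27.4, 60.9 and 30.4 FPKM in AAV-GFP. AAV-GFP replicate 2 stood above the other 5 libraries. Without it the Apod log2 difference was -0.32, against -0.67 (SE 0.32) with it. Dcn, a small proteoglycan that binds collagen fibrils and TGF-beta, had 13.3, 16.0 and 17.0 FPKM in AAV-TKT, against 12.97, 27.5 and 16.8 FPKM in AAV-GFP. The same AAV-GFP library was the highest for Dcn, and without it the log2 difference was 0.051, against -0.23 (SE 0.24) with all 6 and -0.46 without AAV-GFP replicate 1. Sparc, a collagen-binding glycoprotein, had 86.1, 44.4 and 70.5 FPKM in AAV-TKT, against 86.5, 70.7 and 77.5 FPKM in AAV-GFP. Its log2 difference of -0.27 (SE 0.22) came to -0.0012 without AAV-TKT replicate 2, and leaving out AAV-TKT replicate 1 gave -0.47. Postn, a matrix protein of connective tissue, had 7.27, 4.80 and 5.68 FPKM in AAV-TKT, against 6.96, 6.19 and 7.39 FPKM in AAV-GFP, a log2 difference of -0.19 (SE 0.14). Leaving out AAV-TKT replicate 2 gave -0.075, and leaving out AAV-TKT replicate 1 gave -0.33.

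Markers of blood cells differed between the same AAV groups. All 10 listed neutrophil markers of 12, and all 6 listed red-cell markers of 9, were lower in every AAV-TKT library, beside 7.2% of all genes. None of these markers passed the test over all genes (limma, lowest adjusted p = 0.0585). Camp, Mmp8, Mpo, Elane, Alas2 and Slc4a1 averaged under 1 FPKM in AAV-TKT and met the minimum mean only through AAV-GFP. Neutrophil markers summed to 19.9 to 32.4 FPKM in AAV-TKT and 97.2 to 263 FPKM in AAV-GFP. Macrophage markers, 7 of 12 listed, summed to 13.7 to 19.5 FPKM in AAV-TKT and 37.4 to 51.1 FPKM in AAV-GFP. Most of the macrophage sum was Lyz2, at 9.34 ± 1.41 FPKM in AAV-TKT and 29.3 ± 5.60 FPKM in AAV-GFP. All 7 had negative log2 differences, and 5 of them, Lyz2 included, were lower in every AAV-TKT library. Among those, Fcer1g, Cd14 and C1qc averaged under 1 FPKM in AAV-TKT and met the minimum mean only through AAV-GFP, so their lower direction is tied to that minimum. C1qa and C1qb overlapped between the groups, at -0.47 and -0.15. Platelet markers, 2 of 11 listed, overlapped at 6.48 to 8.16 FPKM in AAV-TKT and 5.17 to 7.19 FPKM in AAV-GFP. The summed fibroblast markers, 7 of 14 listed, overlapped as well, at 40.6 to 56.8 FPKM in AAV-TKT and 53.2 to 61.6 FPKM in AAV-GFP. Most of that sum was Gsn, at 34.2 ± 3.58 FPKM in AAV-TKT and 34.6 ± 3.20 FPKM in AAV-GFP. All 7 fibroblast markers had negative log2 differences with overlapping groups, with a median of -0.45 and values such as -0.75 for Col1a1, -0.52 for Col3a1 and -0.47 for Col1a2. None of the listed markers was at 0 in all 6 libraries. The part of any of these cells in the differences of the 8 genes was not tested.

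In Ribose ganglia, Vcan and Thbs1 lay above every Vehicle library, and the other 7 genes tested overlapped between the groups. Vcan averaged 4.77 ± 0.356 FPKM in Ribose and 1.02 ± 0.0938 FPKM in Vehicle, and Thbs1 averaged 4.33 ± 0.443 FPKM in Ribose and 1.70 ± 0.874 FPKM in Vehicle (SD, n = 3 each). None of the 9 genes tested passed over all genes (limma with Benjamini-Hochberg adjustment, lowest adjusted p = 0.324), and 2 of 9 had an unadjusted p under 0.05. Over all 13804 genes tested, 0.00724% passed, all in the higher direction (0% in the lower), and 4.79% had an unadjusted p under 0.05. Groups did not overlap in the higher direction for 2 of 9, beside 4.28% of all genes, and in the lower direction for 0 of 9, beside 5.35%, together 2 of 9 beside 9.63%. The median log2 difference was 0.19 over the 9 genes and -0.023 over all genes. Single libraries set that median, which was 0.74 without Ribose replicate 2, -0.027 without Ribose replicate 1 and -0.12 without Ribose replicate 3.

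**Figure D2:**
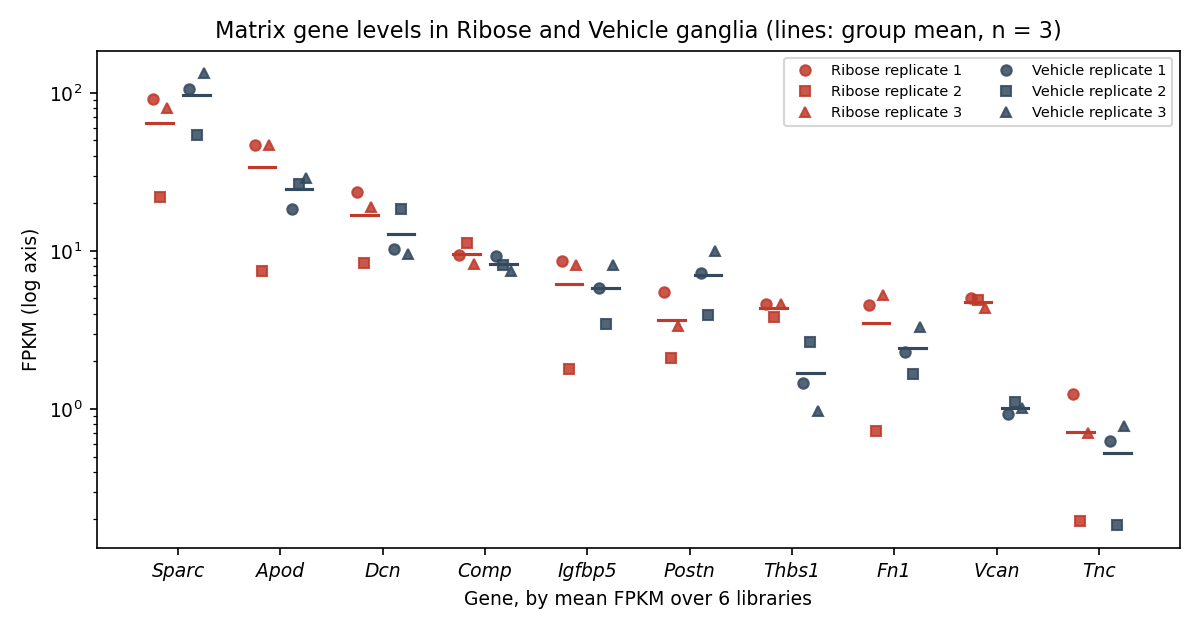
FPKM of the 10 genes on a log axis in the 3 Ribose (left, red) and 3 Vehicle (right, dark) libraries, 1 point per library with its replicate given by the marker shape and a line at each group mean. Vcan and Thbs1 are higher in every Ribose library, and Ribose replicate 2 is the lowest Ribose library for 8 of the 10 genes.

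Vcan, versican, is a large chondroitin sulfate proteoglycan that binds hyaluronan. It had 5.05, 4.88 and 4.37 FPKM in Ribose replicates 1, 2 and 3, against 0.924, 1.11 and 1.01 FPKM in Vehicle replicates 1, 2 and 3. The groups were tight, within 1.16-fold in Ribose and 1.20-fold in Vehicle, and far apart. The Ribose mean was 4.69 times the Vehicle mean. The log2 difference was 1.51 (SE 0.21, limma adjusted p = 0.324), the smallest unadjusted p among the 10 genes and sixth in rank over all genes tested. It stayed between 1.48 and 1.57 with any 1 library left out.

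The Vcan gene is on chromosome 13 (start 89655312, end 89742509, minus strand), with 8 protein-coding transcripts whose levels the FPKM of the gene does not separate. The antisense gene Gm4117 and the processed pseudogene Gm16318 overlap it on the opposite strand, and the labels do not say whether reads were counted by strand. Gm4117 had 0.155, 0.271 and 0.293 FPKM in Ribose, against 0.210, 0.112 and 0.140 FPKM in Vehicle, and it overlapped between the groups. The 5 genes whose values over the 6 ribose libraries were closest to those of Vcan, a comparison added after seeing the data, were AC126807.1, A730035I17Rik, AI427809, Gm6039 and Gm8543. None of these 5 is annotated as protein-coding. They averaged 0.190 to 0.898 FPKM in Vehicle and 2.19 to 4.24 FPKM in Ribose. All 5 thus met the minimum mean of 1 FPKM only through Ribose, so their direction is tied to that minimum. The root mean square difference from Vcan was 0.14 to 0.21 in log2(FPKM + 1), against a median of 0.81 over all 13795 genes compared. The AAV table, in which every listed gene averages 1 FPKM or more, gives no value for Vcan.

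Thbs1 had 4.58, 3.82 and 4.60 FPKM in Ribose, against 1.45, 2.67 and 0.977 FPKM in Vehicle. The lowest Ribose library was 3.82 FPKM and the highest Vehicle library 2.67 FPKM. The Ribose mean was 2.55 times the Vehicle mean, with a log2 difference of 1.03 (SE 0.28). Its direction was opposite to that in AAV-TKT, where the log2 difference was -1.05. The tables were normalized separately, so the difference between the experiments was not tested. Gm29233, on the strand opposite Thbs1, had 2.00, 0 and 2.91 FPKM in Ribose, against 0, 0.251 and 0 FPKM in Vehicle. Its part in the Thbs1 difference was not tested.

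**Figure D3:**
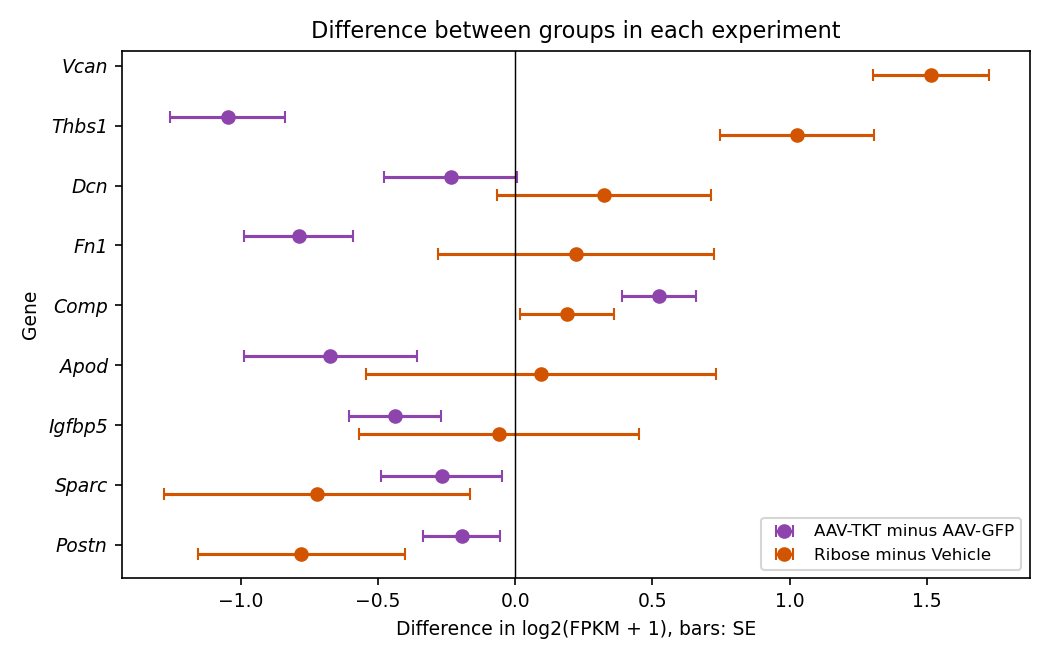
Difference between groups in log2(FPKM + 1), Ribose minus Vehicle (orange) and AAV-TKT minus AAV-GFP (purple), with bars of 1 SE from limma, for the 9 genes tested in the ribose experiment. Thbs1 lies at 1.03 in the ribose and -1.05 in the AAV experiment, and Vcan, shown for ribose alone, lies highest at 1.51.

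For 6 further genes, Ribose replicate 2 was the lowest of all 6 libraries. Fn1 had 4.52, 0.725 and 5.27 FPKM in Ribose, against 2.31, 1.66 and 3.28 FPKM in Vehicle. Apod had 46.9, 7.51 and 46.8 FPKM in Ribose, against 18.4, 26.6 and 28.9 FPKM in Vehicle. Igfbp5 had 8.63, 1.79 and 8.14 FPKM in Ribose, against 5.83, 3.47 and 8.12 FPKM in Vehicle. In these 3 genes the other Ribose libraries lay above every Vehicle library, by a thin margin for Igfbp5. Dcn showed the same order, at 23.4, 8.38 and 18.9 FPKM in Ribose against 10.3, 18.3 and 9.60 FPKM in Vehicle. Log2 differences were 0.22 (SE 0.50) for Fn1, 0.094 (SE 0.64) for Apod, -0.059 (SE 0.51) for Igfbp5 and 0.32 (SE 0.39) for Dcn. Without Ribose replicate 2 they were 0.81 for Fn1, 0.92 for Apod, 0.52 for Igfbp5 and 0.74 for Dcn, with none past the threshold. Without Ribose replicate 3 they were -0.12 for Fn1, -0.32 for Apod, -0.33 for Igfbp5 and 0.19 for Dcn, and without Ribose replicate 1 they were -0.027 for Fn1, -0.32 for Apod, -0.37 for Igfbp5 and 0.044 for Dcn.

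Sparc and Postn had the opposite sign. Sparc had 91.3, 22.1 and 80.7 FPKM in Ribose, against 105.2, 54.1 and 133 FPKM in Vehicle, with a log2 difference of -0.72 (SE 0.56). Without Ribose replicate 2 the Sparc difference was -0.085. Postn had 5.48, 2.09 and 3.37 FPKM in Ribose, against 7.22, 3.91 and 9.95 FPKM in Vehicle, with a log2 difference of -0.78 (SE 0.38). Vehicle replicate 2 was the lowest Vehicle library for both, and without it all Ribose libraries lay below the remaining Vehicle libraries for both. The difference of Postn, a promoter window of which is printed above, was -1.10 without Vehicle replicate 2 and -0.52 without Ribose replicate 2 or Vehicle replicate 3. That of Sparc was -1.09 without Vehicle replicate 2 and -0.45 without Vehicle replicate 3.

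Comp and Tnc showed small differences. Comp had 9.36, 11.2 and 8.27 FPKM in Ribose, against 9.22, 8.10 and 7.47 FPKM in Vehicle, with a log2 difference of 0.19 (SE 0.17). It was 0.085 without Ribose replicate 2 and 0.28 without Ribose replicate 3. Ribose replicate 2, the lowest library for most of these genes, was the highest for Comp. Tnc, a glycoprotein of developing and injured tissue, had 1.24, 0.195 and 0.701 FPKM in Ribose, against 0.625, 0.184 and 0.777 FPKM in Vehicle. Its mean over the 6 libraries was 0.621 FPKM, under the minimum of 1 FPKM, so it was not tested, and replicate 2 was the lowest in both groups.

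Ribose replicate 2 also stood apart in cell markers. Fibroblast markers, 13 of 14 listed, summed to 82.8, 44.9 and 86.6 FPKM in Ribose replicates 1, 2 and 3, against 73.6, 55.1 and 78.8 FPKM in Vehicle. Macrophage markers, 12 of 12 listed, summed to 38.2, 6.02 and 25.9 FPKM in Ribose, against 16.2, 38.6 and 19.6 FPKM in Vehicle. Neutrophil markers, 12 of 12 listed, summed to 120.6, 13.1 and 80.2 FPKM in Ribose, against 29.9, 171 and 33.8 FPKM in Vehicle. Platelet markers, 7 of 11 listed, summed to 9.16, 6.07 and 9.20 FPKM in Ribose, against 3.92, 6.45 and 6.32 FPKM in Vehicle. Ribose replicate 2 was the lowest in its group for 34.3% of all genes tested, and for 8 of the 10 genes here. The part of cell mix in the differences of the 10 genes was not tested.

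**Figure D4:**
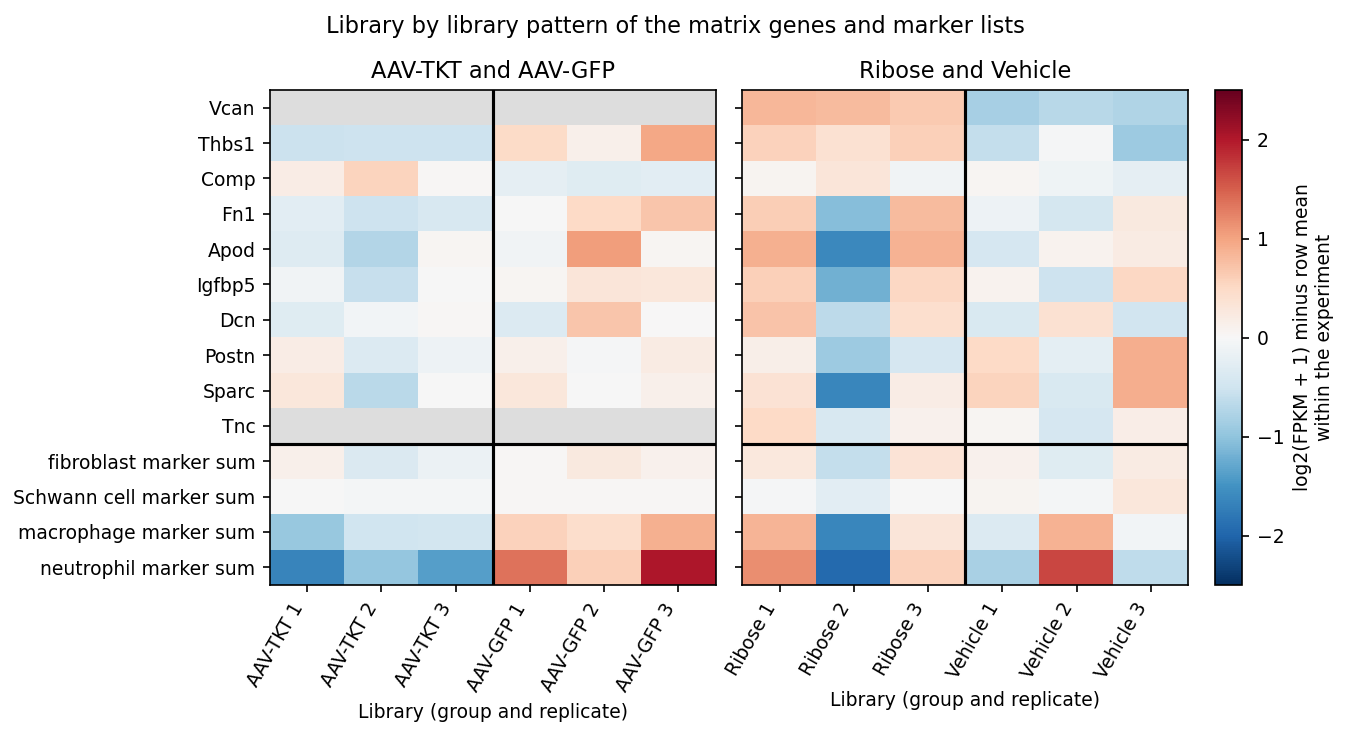
Each gene, and the summed FPKM of 4 marker lists, in every library of the AAV experiment (left) and the ribose experiment (right), as log2(FPKM + 1) minus its mean over the 6 libraries of the experiment, in red above and blue below that mean, with grey where the AAV table has no value. The column of Ribose replicate 2 is blue for most genes and all 4 marker sums, but not for Vcan, Thbs1 and Comp.

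Genes outside the 10 with the closest pattern were sought for Apod, Sparc and Thbs1, the 3 that varied most over the 12 libraries once each experiment was set to its own mean. Closeness was the root mean square difference in log2(FPKM + 1) over 12845 genes tested in both tables. Apod was closest to Tgfbi, a collagen-binding matrix protein induced by TGF-beta (0.30), then Islr (0.33) and Col1a1, a chain of type I collagen (0.36), against a median of 0.74 over all genes. Sparc was closest to Ndrg1 (0.069), against a median of 0.66. For Thbs1 the closest were the histone gene Hist2h3b (0.29), Mmp9, a gelatinase abundant in neutrophils (0.30), and the kinase Clk4 (0.32), against a median of 0.62. In the AAV experiment both Thbs1 and Mmp9 met the minimum mean of 1 FPKM only through AAV-GFP.

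Around these 10 genes, 9 lists of matrix genes with 202 further members were examined. Of 138 tested in the AAV experiment 0 passed over all genes in limma, and 24 had an unadjusted p under 0.05, or 17.4% of them beside 10.6% of all genes. They had a median log2 difference of -0.11, beside 0.014 over all genes, and 48 were positive and 90 negative. Of 153 tested in the ribose experiment 0 passed, 5 had an unadjusted p under 0.05, or 3.27% beside 4.79% of all genes, and the median was -0.071, beside -0.023 over all genes. Single libraries set the direction of many list medians. Without Ribose replicate 2 the medians of all 9 lists were positive in the ribose experiment, from 0.0013 to 0.17, where 7 of 9 were negative with all libraries. The genes named below had the smallest unadjusted p of their list.

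Among other matrix glycoproteins in AAV-TKT, 22 of 30 were negative, with a median log2 difference of -0.23, and groups did not overlap for 8 of 30 in the lower direction, beside 7.2% of all genes, and for 2 of 30 in the higher direction, beside 11.3%. Without AAV-TKT replicate 2 that median was -0.0016. The summed level of the list was higher in every AAV-TKT library, at 1118 to 1270.3 FPKM in AAV-TKT and 1024 to 1105 FPKM in AAV-GFP. Most of that sum was Spock2 and Spock1, so it does not describe the list as a whole. Spock2 averaged 640 ± 54.9 FPKM in AAV-TKT and 559 ± 32.6 FPKM in AAV-GFP. Spock1 averaged 167 ± 12.0 FPKM in AAV-TKT and 136 ± 11.2 FPKM in AAV-GFP. Ltbp1, which holds latent TGF-beta in the matrix, averaged 1.72 ± 0.188 FPKM in AAV-TKT and 4.03 ± 1.02 FPKM in AAV-GFP. Tgfbi averaged 1.26 ± 0.333 FPKM in AAV-TKT and 2.501 ± 0.521 FPKM in AAV-GFP, and Efemp1, a fibulin, 2.65 ± 0.434 FPKM in AAV-TKT and 3.95 ± 0.428 FPKM in AAV-GFP (SD, n = 3 each). In the ribose experiment 14 of 34 were positive and 20 negative, with a median of -0.046. The microfibril protein Mfap5 averaged 2.95 ± 2.77 FPKM in Ribose and 0.403 ± 0.275 FPKM in Vehicle, and Smoc2, a relative of Sparc, 2.87 ± 1.79 FPKM in Ribose and 0.712 ± 0.0938 FPKM in Vehicle. Mfap5 and Smoc2 met the minimum mean of 1 FPKM only through Ribose, so their higher direction is tied to that minimum. Vwa1 was at a log2 difference of -0.67.

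Among other proteoglycans, 13 of 20 were negative in AAV-TKT (median -0.16) and 16 of 22 were negative in Ribose (median -0.18). The medians were 0.0065 without AAV-TKT replicate 2 and 0.12 without Ribose replicate 2. Srgn, the proteoglycan of blood cell granules, averaged 1.94 ± 0.298 FPKM in AAV-TKT and 4.37 ± 1.36 FPKM in AAV-GFP. The syndecan Sdc1 was at -0.32 and the glypican Gpc1 at 0.25 in the AAV experiment, each with groups that did not overlap. In that experiment groups did not overlap for 3 of 20 in the lower direction, beside 7.2% of all genes, and for 3 of 20 in the higher direction, beside 11.3%. In the ribose experiment Sdc3 was at -0.29, Aspn at 0.97 and Srgn at -0.94. Aspn averaged 0.266 FPKM in Vehicle and met the minimum mean of 1 FPKM only through Ribose, so its higher direction is tied to that minimum. Of the 22 other proteoglycans tested, 0 were higher in every Ribose library, beside 4.28% of all genes. With so small a share over all genes, that count does not set Vcan apart.

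The genes of versican and hyaluronan turnover were enzymes that make or cut sugar chains, Adamts proteases and the receptor Cd44. Their median log2 difference was -0.079 over 14 in AAV-TKT, or 0.050 without AAV-TKT replicate 2. In Ribose it was -0.036 over 15, or 0.072 without Vehicle replicate 2. Csgalnact2, which starts chondroitin chains, averaged 6.60 ± 0.705 FPKM in Ribose and 3.88 ± 1.36 FPKM in Vehicle, and the versican-cutting protease Adamts9 averaged 3.49 ± 1.23 FPKM in Ribose and 1.97 ± 0.467 FPKM in Vehicle. Both were higher in every Ribose library. Adamts15 was lower in every Ribose library, at a log2 difference of -0.47. Groups did not overlap for 2 of 15 in the higher direction, beside 4.28% of all genes, and for 1 of 15 in the lower direction, beside 5.35%. In the AAV experiment Cd44, the hyaluronan receptor, averaged 63.7 ± 2.55 FPKM in AAV-TKT and 77.5 ± 9.02 FPKM in AAV-GFP, Hyal2 was at -0.40 and Adamts1 at -0.31.

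Of the receptors of these proteins in AAV-TKT, 10 of 15 were negative (median -0.040), with Ptprs, a receptor for chondroitin sulfate proteoglycans, at 0.24, the integrin chain Itgb3 at -0.44 and Cacna2d1, a thrombospondin receptor and calcium channel subunit, at -0.14. In Ribose, 12 of 16 were negative (median -0.15, or 0.027 without Ribose replicate 2), and their summed level was lower in every Ribose library, at 741 to 764 FPKM in Ribose and 793 to 851 FPKM in Vehicle. Most of that sum was Bsg, Ptprs, Ptprf, Cd47 and Itgb1, so it does not describe the list as a whole. Groups did not overlap in the lower direction for 1 of 16, Bsg, beside 5.35% of all genes. Bsg was at -0.20, Itgb3 at -0.78 and Lrp1, an endocytic receptor for thrombospondin, at 0.42. TGF-beta pathway genes had medians of 0.054 over 12 in AAV-TKT and 0.052 over 15 in Ribose. Tgif1, Tgfbr3 and Tgfb3 were at -0.39, -0.35 and 0.13 in AAV-TKT, and Smad6, Tgfbr3 and Ccn2 at 0.54, -0.46 and 1.17 in Ribose. Tgif1 averaged 0.817 FPKM in AAV-TKT and met the minimum mean of 1 FPKM only through AAV-GFP. Ccn2, a matricellular target of TGF-beta, averaged 5.99 ± 4.81 FPKM in Ribose and 1.34 ± 0.212 FPKM in Vehicle, and the groups overlapped.

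Matrix proteases and their inhibitors had medians of -0.12 over 16 in AAV-TKT and -0.046 over 18 in Ribose. Mmp9 averaged 0.396 ± 0.0996 FPKM in AAV-TKT and 1.90 ± 0.834 FPKM in AAV-GFP, while Tll1 and Mmp24 were at 0.30 and 0.16. Mmp9 met the minimum mean of 1 FPKM only through AAV-GFP, so its lower direction is tied to that minimum. In Ribose the protease inhibitor Serpine2 was at -1.01, Mmp17 at 0.42 and the urokinase Plau at -0.28. Genes of collagen cross-linking and maturation had medians of -0.11 over 12 in AAV-TKT, with Plod1, Pcolce and Serpinh1 at -0.20, -0.25 and -0.34, and -0.098 over 13 in Ribose. There the lysyl hydroxylase Plod2 averaged 4.39 ± 2.06 FPKM in Ribose and 1.69 ± 0.240 FPKM in Vehicle, the prolyl hydroxylase P4ha1 was at -0.32 and P3h1 at 0.58.

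The insulin-like growth factor genes around Igfbp5 were mostly at small negative values in AAV-TKT (11 of 12 negative, median -0.071), with Igfbp7 at -0.37, the protease Pappa at -0.20 and the insulin receptor Insr at -0.11. In Ribose 7 of 14 were negative (median 0.021), with Igf2 at 1.13, Igfbp4 at -0.86 and Igfbp2 at -0.21. Igf2 averaged 0.811 FPKM in Vehicle and met the minimum mean of 1 FPKM only through Ribose, so its higher direction is tied to that minimum. Among lipocalins and apolipoproteins, relatives or partners of Apod, Lcn2 averaged 1.88 ± 0.453 FPKM in AAV-TKT and 13.6 ± 5.77 FPKM in AAV-GFP, Lrp8 was at -0.28 and Clu at 0.20. In Ribose 7 of 9 of these were negative (median -0.14, or 0.013 without Ribose replicate 2), with Abca1 at -0.37, Apoe at -1.01 and Abcg1 at -0.20. Lcn2 is also in the neutrophil list.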

How the data were processed

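The deposited values are FPKM, computed by the authors in 1 table per experiment. Per the labels' protocols, polyadenylated RNA was made into directional libraries. Per the submitters' processing notes, bcl2fastq 2.20, FastQC, Trim Galore and GRCm38 were used. The aligner, counter, annotation release and scaling totals were not given in the sources used here. In all, the AAV table held 13178 genes, the lowest averaging 1.00 FPKM, and 21650 genes were listed for ribose. GENCODE M21 gave symbols to 13170 and 21612 of them, and gene spans. Rn7s2 took 6.32% to 12.6% of the FPKM total in the AAV and 18.7% to 26.7% in the ribose libraries.

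Within each table, log2(FPKM + 1) was fitted with limma 3.58.1 in R 4.3.3 (intensity trend, a minimum mean of 1 FPKM, Benjamini-Hochberg adjustment over all genes, threshold 0.05), after tests on simulated data. Marker lists were summed per library. The members and lists were chosen with earlier results of these data known. Named genes were the 10 members, the 3 of smallest unadjusted p in each matrix list and, for the 3 most variable members listed and tested in both tables, the 3 closest genes, not all of which are reported here. The genes closest to Vcan fall outside that rule. Alternatives tried were other pseudocounts (0.1, 0.5), other filters (none, or a minimum of 5 FPKM), 3 other scalings, a replicate block, library weights and left-out libraries.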

Additional observations from a re-analysis of the deposited data

Results flagged for a closer look

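Thbs1 had opposite directions in the experiments. Every AAV-TKT library lay below every AAV-GFP library (log2 difference -1.05), and every Ribose library lay above every Vehicle library (log2 difference 1.03). The difference between the experiments was not tested. Of 12853 genes tested in both tables, 48 (0.373%) showed this combination of directions, and 98 (0.762%) showed the reverse combination. Thbs1 was selected on these differences, and in the AAV experiment it met the minimum mean of 1 FPKM only through AAV-GFP.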

How the results depend on the processing

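Over 258 recomputed log2 differences of single members, 248 kept their sign, and in none of the settings did a member pass the threshold. The number of genes past the threshold in the AAV experiment, 2 as reported, was 5 with a pseudocount of 0.1, 4 with a minimum of 5 FPKM, 4 with equal totals, 23 with library weights and 3 to 41 with 1 library left out, the highest without AAV-GFP replicate 2. In the ribose experiment it was 1 as reported, 2 with a pseudocount of 0.5, 2 with equal totals, 1 to 4 with 1 library left out and 6 without Ribose replicate 2 and Vehicle replicate 2 together. The cause was not tested. Members whose groups did not overlap numbered 4 in the AAV experiment and 2 in the ribose experiment. They numbered 1 and 0 with a minimum of 5 FPKM, which leaves fewer members, beside 19.3% and 9.31% of all genes. With 1 library left out they numbered 4 to 6 beside 25.2% to 32.2% of all genes in the AAV experiment, and 2 to 6 beside 15.2% to 23.2% in the ribose experiment, with 6 without Ribose replicate 2 (23.2%) and 4 without Vehicle replicate 2 (22.7%). Without both replicate 2 libraries of the ribose experiment the number was 8, beside 37.7% of all genes. Those counts were added after seeing the data. A pseudocount of 0.1 gave log2 differences of -1.64 for Thbs1 and -1.23 for Fn1 in AAV-TKT, and of 2.12 for Vcan and 1.41 for Thbs1 in Ribose, and a pseudocount of 0.5 gave 1.80 for Vcan. Dcn was at 1.01 in Ribose without both replicate 2 libraries. Over all alternatives the limma adjusted p was 0.0649 to 0.611 for Thbs1 in AAV-TKT and 0.201 to 0.915 for Vcan in Ribose. With the replicate number as a block, 0 genes passed in the AAV experiment (limma), and the ribose count was unchanged at 1. Same-numbered samples deviated together at correlations of 0.033, 0.071 and -0.014 in the AAV experiment and 0.042, 0.36 and 0.16 in the ribose experiment, so the numbers were not taken as pairs, and not every sample correlated best with its own number. Of 726 recomputed list medians, 648 kept their sign. The low values of Thbs1, Fn1, Vcan and Tnc, and the shallower Ribose libraries, limit precision.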
